A study of Mus musculus with 2 samples.

Results

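Fragments of the small nuclear RNAs of the spliceosome (snRNAs) were described in small RNA libraries of J1 mouse embryonic stem cells. A fragment was taken as a distinct sequence of 15 to 17 nt that matched the sense strand of a GENCODE gene of biotype snRNA exactly and over its full length, and each sequence was counted 1 time however many gene copies held it. There were 248 such sequences among 96471 distinct sequences of that length. The J1 line is of strain 129S4/SvJae, is labelled as derived from the inner cell mass, and was grown without feeder cells on gelatin in Knockout Serum Replacement with 1000 U/mL of leukaemia inhibitory factor. The SB431542 group received 3 µM of SB431542, a kinase inhibitor of type I receptors for TGF-beta, Nodal and activin, and the DMSO group an equal volume of the solvent, both for 24 h. Each group is 1 library of 1 cell line. Differences between the groups therefore have no replicate check and no test, and every interval below is a 95% interval that covers counting error only. Cell identity was not checked against marker genes, since the files hold short RNA pieces.

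The libraries held 990296 reads of 15 to 17 nt with DMSO and 517535 with SB431542. Levels are given per 1000000 of these reads (RPM). The files end at 17 nt and longer pieces of the same RNAs are not analysed here. A count of 0 allows a level of up to 3 reads, which is 3.03 RPM with DMSO and 5.80 RPM with SB431542.

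Spliceosomal snRNAs are short nuclear RNAs that work as RNA and protein particles. U1 pairs with the 5′ splice site, U2 with the branch point, and U4, U5 and U6 join them to form the active spliceosome, while U11 and U12 take the places of U1 and U2 in the minor spliceosome. U7 is not part of the spliceosome and acts in the 3′ end processing of histone mRNA. U1, U2, U4, U5, U11 and U12 each carry a uridine-rich Sm site, a single-stranded stretch on which a ring of Sm proteins assembles, and U7 carries a variant of it. U6 has no Sm site and binds a related LSm ring at its 3′ end.

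The annotation holds 1383 snRNA genes, and the symbols of 11 of them give a type, namely U1, U2, U5, U6, U7, U11 or U12. No symbol names U4. The type of a sequence was taken from these 11 genes, and a sequence found only in the other 1372 genes was left untyped. No sequence fell in more than 1 type.

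The 2 RNAs that supply most fragments are shown whole, because the finding lies in where the fragments sit on them. The capitals mark the letters ATTTNTGG, the Sm site of both RNAs, which occur 1 time in each. Sequences are from the GENCODE M21 transcripts, read as DNA letters from 5′ to 3′. Rnu1a1 (ENSMUSG00000095969.1) is a U1 gene of 164 nt at chr11:87422867-87423030 on the plus strand of GRCm38, within the bounds of the protein-coding gene Tex14 but outside its exons. Rnu2-10 (ENSMUSG00000065944.1) is a U2 gene annotated with 191 nt at chr11:101658238-101658428 on the plus strand, and overlaps no other annotated gene.
Rnu1a1: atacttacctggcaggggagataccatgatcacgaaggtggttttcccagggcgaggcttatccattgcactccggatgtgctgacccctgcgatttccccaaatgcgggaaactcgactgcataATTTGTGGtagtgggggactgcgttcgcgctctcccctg
Rnu2-10: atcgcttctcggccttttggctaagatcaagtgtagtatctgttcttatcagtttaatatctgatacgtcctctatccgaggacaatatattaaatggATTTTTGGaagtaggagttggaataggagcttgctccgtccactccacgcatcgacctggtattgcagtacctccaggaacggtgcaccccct

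The leading fragments follow, named by type and by their first and last base on the RNA, with the same letters in capitals where a fragment holds them whole. They show nested pieces with starts close together on U2 and a wider spread of starts on U1. U2 96-110 and U2 96-112, also among the 10 most abundant, are not listed and start at base 96.
U2 93-109: aaatggATTTTTGGaag
U2 94-110: aatggATTTTTGGaagt
U2 95-110: atggATTTTTGGaagt
U2 95-111: atggATTTTTGGaagta
U1 124-140: taATTTGTGGtagtggg
U1 126-142: ATTTGTGGtagtggggg
U1 128-142: ttgtggtagtggggg
U1 132-148: ggtagtgggggactgcg
On the genome the most abundant fragment, U2 95-111, lies at chr11:101658332-101658348, and the U1 fragments 124-140 and 132-148 lie at chr11:87422990-87423006 and chr11:87422998-87423014. These are the places on 1 copy only. The sequence of U2 95-111 is found in 7 snRNA genes and that of U1 124-140 in 33, so the copy of origin is not known.

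U2 was the main source of snRNA fragments in both libraries. It supplied 2248 of 2950 snRNA reads with DMSO (76.2%, 74.6 to 77.7, Clopper-Pearson) and 774 of 1227 with SB431542 (63.1%, 60.3 to 65.8). U1 was second with 603 reads (20.4%, 19.0 to 21.9) and 361 reads (29.4%, 26.9 to 32.1). The other types and the untyped sequences together held 99 reads with DMSO (3.36%) and 92 with SB431542 (7.50%). Among reads the distribution was steep. U2 95-111 alone made up 36.6% of the snRNA reads with DMSO and 31.8% with SB431542, and the 10 most abundant sequences made up 77.2% and 67.8%. Of the 248 sequences, 84 were seen in both libraries (33.9%), 101 only with DMSO (40.7%) and 63 only with SB431542 (25.4%). Over all 96471 sequences these shares were 18.2%, 56.0% and 25.8%. A single read in all was held by 124 of the 248. Only 6 further sequences matched the antisense strand of an snRNA gene and no sense strand, with 5 reads with DMSO and 1 with SB431542.

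As a whole, snRNA fragments stood at 2979 RPM with DMSO and 2371 RPM with SB431542. SB431542 over DMSO gave a log2 ratio of -0.33 (-0.43 to -0.23), on a scale with a pseudocount of 0.5 read. Per reads that match annotated snRNA, snoRNA, scaRNA, rRNA or mitochondrial rRNA genes the ratio was -0.10. That total includes the snRNA reads themselves and only rRNA genes of the annotation. In these bulk libraries fewer cells with an RNA and less of it per cell cannot be told apart.

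The position of the fragments on each RNA was examined next. On U2 they formed 1 block: after division of the RNA into 5 equal parts, with each fragment placed by its midpoint, the middle part held 98.8% of the U2 reads with DMSO (98.2 to 99.2) and 98.6% with SB431542 (97.5 to 99.3). In each library coverage was at least 50% of its highest value from base 95 to base 111, around the Sm site at bases 99 to 106. The whole Sm site was present in 19 of the 51 U2 sequences, and these carried 98.0% of the U2 reads with DMSO (97.3 to 98.5) and 95.7% with SB431542 (94.1 to 97.1). The part of U2 that pairs with the branch point lies nearer its 5′ end, and the first of the 5 parts held 11 and 4 reads, of which 8 and 3 were of U2 1-15, a piece from the first base that also matches 10 genes of other biotypes, miRNA genes among them. No U2 fragment reached the annotated last base.

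The ends of the U2 fragments were few. Base 95 was the start of 66.0% of U2 reads with DMSO and 64.9% with SB431542, base 94 of 18.5% and 18.3%, base 96 of 7.74% and 5.81%, and base 93 of 4.49% and 3.36%. The last base was 111 in 49.96% and 51.8% of the reads, 110 in 35.9% and 32.6%, and 109 in 7.83% and 5.17%. These 4 starts, and these 3 ends, came in the same order by read number in both libraries.

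On U1 the fragments lay over the Sm site and the bases after it. The last of the 5 parts held 80.8% of the U1 reads with DMSO (77.4 to 83.8) and 83.1% with SB431542 (78.8 to 86.8), and the part before it 14.6% and 14.4%. Coverage was at least 50% of its highest value from base 128 to base 142 with DMSO and from base 126 to base 142 with SB431542, with the Sm site at bases 126 to 133. The first 3 of the 5 parts, which hold the 5′ end that pairs with the splice site, had 16, 9 and 3 reads with DMSO and 6, 2 and 1 with SB431542. No U1 fragment began at the first base. A small second block lay near the 3′ end. U1 147-161, U1 147-162 and U1 147-163, which stop short of the last base and were picked out after their values were seen, had 9, 13 and 9 reads with DMSO and 6, 6 and 2 with SB431542. A further 5 sequences with 10 and 6 reads ran to the last base of their gene.

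**Figure D1:**
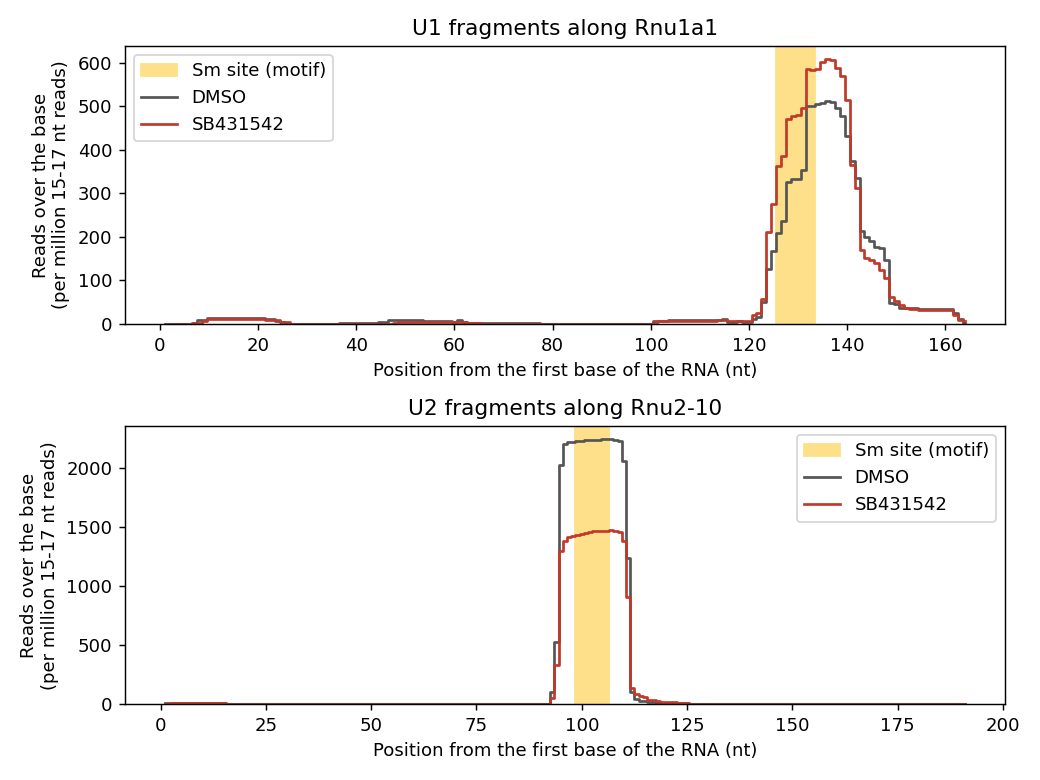
Reads covering each base of U1 (Rnu1a1, top) and U2 (Rnu2-10, bottom), per 1000000 reads of 15 to 17 nt, against the distance from the first base of the RNA, with the DMSO library in grey, the SB431542 library in red and the Sm site shaded. The U2 block runs from base 95 to 111 in both libraries and is lower with SB431542, while the U1 block runs from base 128 to 142 with DMSO and from base 126 to 142 with SB431542, each at 50% of its highest value or more.

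The Sm letters are rare among other short reads. The motif ATTTNTGG, searched on the strand that was read, was held by 45 of the 248 snRNA sequences (18.1%) and by 102 of the 96223 other sequences of 15 to 17 nt (0.106%). Among snRNA reads 82.0% with DMSO and 75.7% with SB431542 held it, against 0.0104% and 0.0101% of the other reads. Of the 1383 snRNA genes, 104 (7.52%) hold these letters. The letters were set on the Sm site of U1 and U2 after the reads had been seen. These shares thus restate where the U1 and U2 fragments lie and are not a separate test. The Sm letters of the remaining types differ and were looked for separately, a search added after the reads had been seen. TTTTTGAG, at bases 90 to 97 of Rnu5g (U5) and 76 to 83 of Rnu12 (U12), was held by 2 sequences of each type, with 2 reads with DMSO and 1 with SB431542 in each case, and by 0.0207% of all distinct 15 to 17 nt sequences. TTTTTTGG at bases 89 to 96 of Rnu11 (U11) was held by 1 sequence with 1 read, and by 0.0352% of all sequences. ATTTGTCT at bases 22 to 29 of Rnu7 was held by none of the 5 U7 sequences, and by 0.0466% of all sequences. These matches describe letters and show neither binding nor a cause.

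Lengths differed between U1 and U2. Of the U2 reads 72.6% with DMSO (70.7 to 74.5) and 76.1% with SB431542 (72.9 to 79.1) were 17 nt long, the upper limit of the files, and 6.14% and 5.30% were 15 nt. Of the U1 reads 46.8% (42.7 to 50.8) and 51.3% (46.0 to 56.5) were 17 nt, and 28.4% and 24.7% were 15 nt. Over all reads of 15 to 17 nt, 49.5% and 49.1% were 17 nt. By reads, U2 was thus weighted to the longest length more than all reads were. U2 95-111 alone held 1079 of the 1633 U2 reads of 17 nt with DMSO and 390 of the 589 with SB431542. Over distinct sequences, 37.25% of those of U2 were 17 nt, against 46.59% of all sequences of 15 to 17 nt. The U1 share of reads at 17 nt had an interval that included the share over all reads. For U6 the 16 nt sequences led by reads, with 14 of 23 and 20 of 36, of which U6 50-65 alone held 11 and 15. By distinct sequences 17 nt led, with 10 of the 21 of U6.

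**Figure D2:**
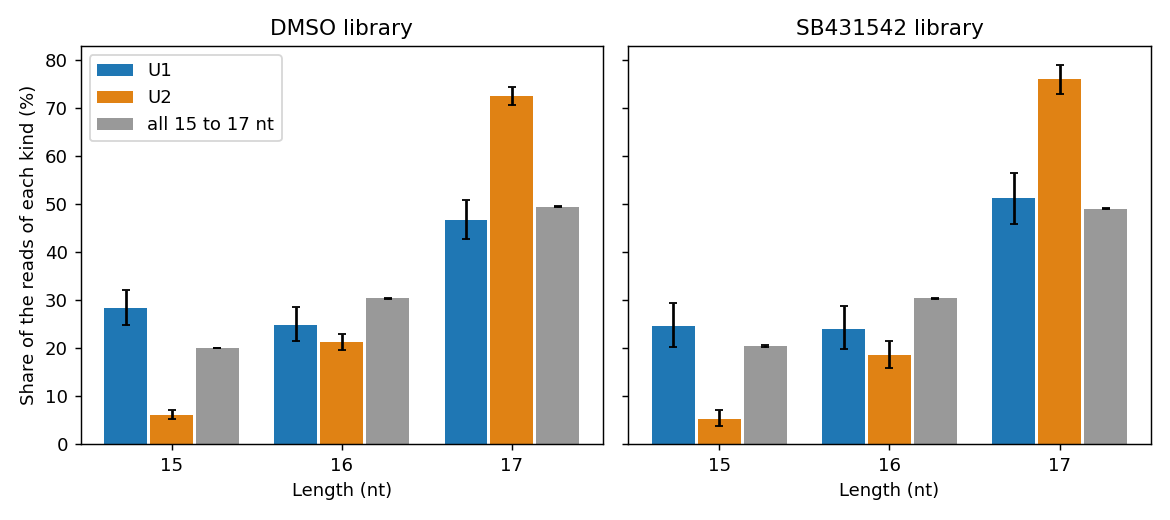
Share of reads at 15, 16 and 17 nt (x axis, nt) among U1 reads, U2 reads and all 15 to 17 nt reads (y axis, %), in the DMSO library (left) and the SB431542 library (right), with 95% Clopper-Pearson intervals. U2 reads stand at 72.6% and 76.1% at 17 nt, above the 49.5% and 49.1% of all reads.

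The comparison of SB431542 with DMSO was then made by type. U2 fragments were lower with SB431542, at 1496 RPM against 2270 RPM, 1.52-fold (log2 -0.60, -0.72 to -0.48). U1 fragments stood at 697.5 RPM with SB431542 and 609 RPM with DMSO (log2 0.20, 0.0039 to 0.39), a difference at the edge of counting error. That for U1 was -0.0092 with edgeR TMM factors, so its sign depends on the scale. The ratio of U1 to U2, which needs no library total, was 1.74-fold higher with SB431542 (log2 0.80, 0.57 to 1.02, conditional interval of the odds ratio). Over the 4556 sequences of this length with at least 20 reads in all the median log2 ratio was -0.12.

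The ratios of these reads also followed base composition. Among sequences outside snRNA genes, the median log2 ratio was -0.56 at 20 to 30% GC, -0.70 at 30 to 40% GC, -0.015 at 60 to 70% GC and 0.38 at 80 to 90% GC. U2 reads had a mean GC content of 30.6% with DMSO and U1 reads of 56.8%, against 60.7% over all reads of 15 to 17 nt. After division by the median of its GC bin the ratio of U2 was -0.011, that of U1 was 0.49 and that of U1 to U2 was 0.50. The ratio of U2 was therefore close to that of other sequences of like GC content. Base composition and the treatment cannot be told apart with 1 library in each group.

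**Figure D3:**
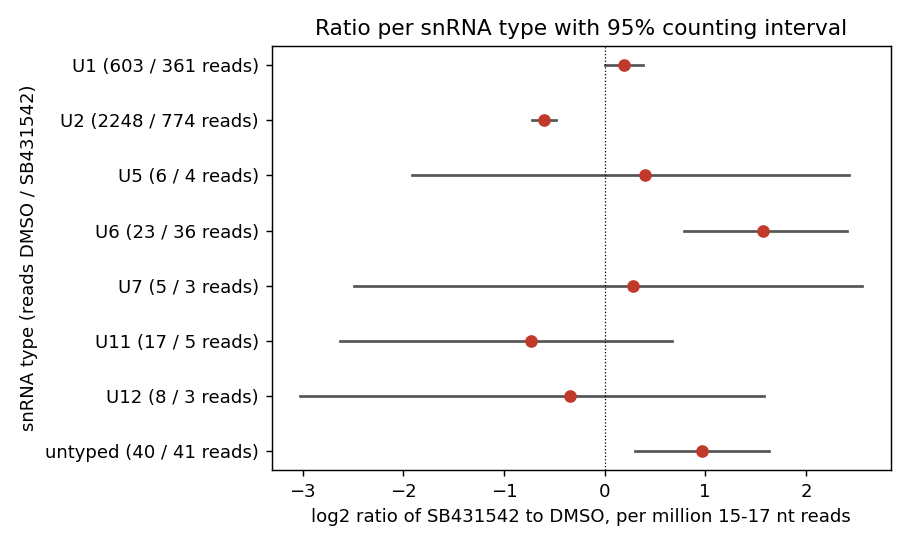
log2 ratio of SB431542 to DMSO per 1000000 reads of 15 to 17 nt (x axis) for each snRNA type (y axis, with its reads in both libraries), with 95% counting intervals as lines. U2 lies below 0, U6 and the untyped sequences lie above 0, and the intervals of U5, U7, U11 and U12 include 0.

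Among single fragments, 23 of the 248 had at least 20 reads over both libraries, 12 of U1, 10 of U2 and 1 of U6, and carried 2589 of the snRNA reads with DMSO and 977 with SB431542. The other 225 held 361 and 250 reads and are given only in sums. Of the 23, 5 were at least 2-fold lower with SB431542 and 2 at least 2-fold higher, where 16.5% of all sequences with as many reads were that much lower and 7.57% that much higher. Both counts are near what that background gives for 23 sequences. The median log2 ratio of the 23 was -0.19. Nested fragments of 1 RNA share their source, so these are not 23 separate observations.

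All 5 of the fragments at least 2-fold lower came from U2. U2 95-111 had 1079 reads with DMSO and 390 with SB431542, 1090 and 754 RPM (log2 -0.53, -0.70 to -0.36). U2 94-110 had 375 and 133 reads (log2 -0.56, -0.86 to -0.27), and U2 95-110 had 359 and 102 (log2 -0.87, -1.21 to -0.56). These 3 most abundant pieces were lower by less than 2-fold. The 5 past 2-fold were less abundant. U2 93-109 had 91 and 22 reads (log2 -1.09, -1.85 to -0.43). U2 96-110 had 74 and 17 (log2 -1.15, -2.04 to -0.41). U2 95-109 had 46 and 10, U2 96-111 had 44 and 11, and U2 94-109 had 39 and 8, with log2 ratios of -1.21, -1.02 and -1.28. Each of the intervals of the 5 included values within 2-fold. With a pseudocount of 5 reads 0 of the 23 were 2-fold lower and 2 were higher, against 7.31% and 7.53% of all sequences with as many reads. After the GC correction 1 was lower and 5 were higher, against 12.2% and 8.96%. U2 96-112 had 56 and 17 reads (log2 -0.75, -1.66 to 0.021), and the only described U2 fragment with a ratio above 0, U2 97-113, had 15 and 10 reads (log2 0.37, -0.96 to 1.60).

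U1 fragments were then split by how much of the Sm site they held. Pieces with the whole Sm site had 206 reads with DMSO and 185 with SB431542 in 19 sequences (log2 0.78, 0.49 to 1.08). Of these reads 129 and 129 were 17 nt long (log2 0.88, 0.52 to 1.24, per reads of all lengths). On that scale the ratios at 15 nt (0.41, -0.43 to 1.22) and 16 nt (0.44, -0.26 to 1.11) had intervals that included 0. Pieces that held part of the Sm site, most of which began inside it, had 300 and 128 reads in 25 sequences (log2 -0.29, -0.60 to 0.011). Those elsewhere on U1 had 97 and 48 reads in 49 sequences (log2 -0.071, -0.61 to 0.43). Among U1 reads the share with the whole site was 34.2% with DMSO (30.4 to 38.1) and 51.2% with SB431542 (46.0 to 56.5). The ratio of whole to partial pieces was 2.11-fold higher with SB431542 (log2 1.07, 0.65 to 1.503), and 0.61 on the log2 scale without the most abundant sequence of each. On U2 the same split ran the other way. Pieces with the whole site had 2203 and 741 reads (log2 -0.64, -0.76 to -0.52). Those with part of it had 15 and 18 reads in 10 sequences (log2 1.19, 0.13 to 2.29), and those elsewhere had 30 and 15 in 22 sequences (log2 -0.040, -1.06 to 0.88). This split into whole, partial and other pieces was drawn after the reads had been seen.

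Base composition also differed within U1. The pieces with the whole site had a mean GC content of 41.6% with DMSO, and the median over other sequences of 40 to 50% GC was -0.47 on the log2 scale. The partial pieces had 64.1%, and the median at 60 to 70% GC was -0.015. After the GC correction the log2 ratio of whole to partial pieces was 1.48. With 1 library in each group, what sets this contrast was not tested.

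**Figure D4:**
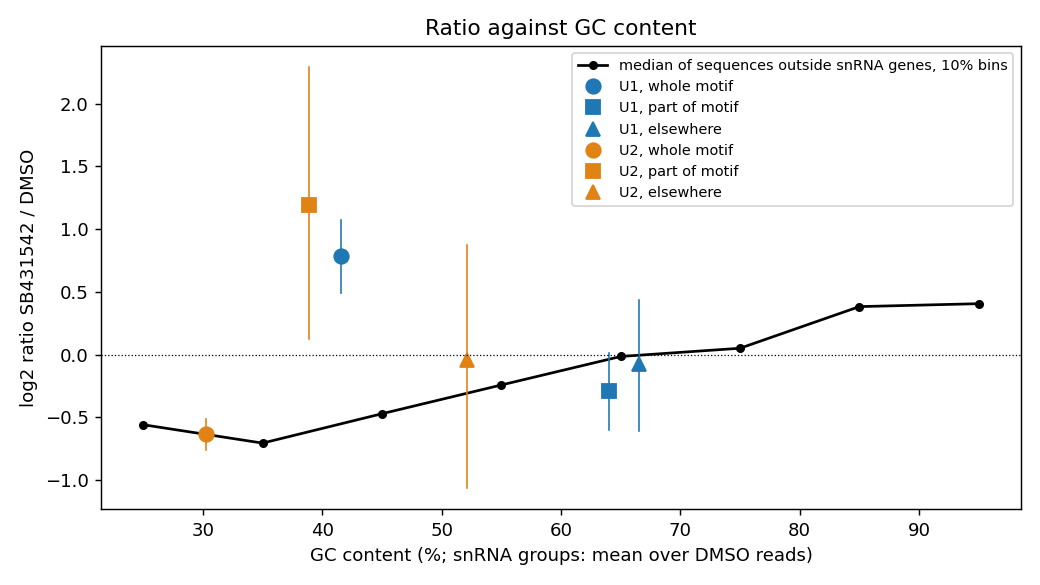
log2 ratio of SB431542 to DMSO (y axis) against GC content (x axis, %) for the fragments of U1 (blue) and U2 (orange), grouped by whether they hold the whole Sm site, part of it or none, with 95% counting intervals, and in black the median of other sequences in bins 10% wide that hold at least 20 sequences. U2 with the whole site lies on the black line, and U1 with the whole site lies above it at 0.78.

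U1 124-140 had the highest ratio of the described U1 fragments: 45 reads with DMSO and 60 with SB431542, 45.4 and 116 RPM (2.54-fold, log2 1.35, 0.77 to 1.94). It was also the only sequence among the U1 and U2 fragments with at least 20 reads that was at least 2-fold higher. U1 126-142, which begins at the first base of the Sm letters, had 32 and 30 reads (log2 0.84, 0.075 to 1.61), U1 125-140 had 12 and 12 (0.94, -0.35 to 2.22) and U1 125-141 had 24 and 17 (0.45, -0.55 to 1.40). U1 132-148, which begins on the last 2 bases of the site, had 97 and 25 reads, 97.9 and 48.3 RPM (log2 -0.999, -1.72 to -0.37). It was the most abundant U1 sequence in the DMSO library and U1 124-140 the most abundant in the other. U1 128-142, with 70 and 36 reads, lay between them (log2 -0.014, -0.65 to 0.58). By start, base 132 opened 24.0% of the U1 reads with DMSO and 12.7% with SB431542, and base 124 opened 12.6% and 21.9%.

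**Figure D5:**
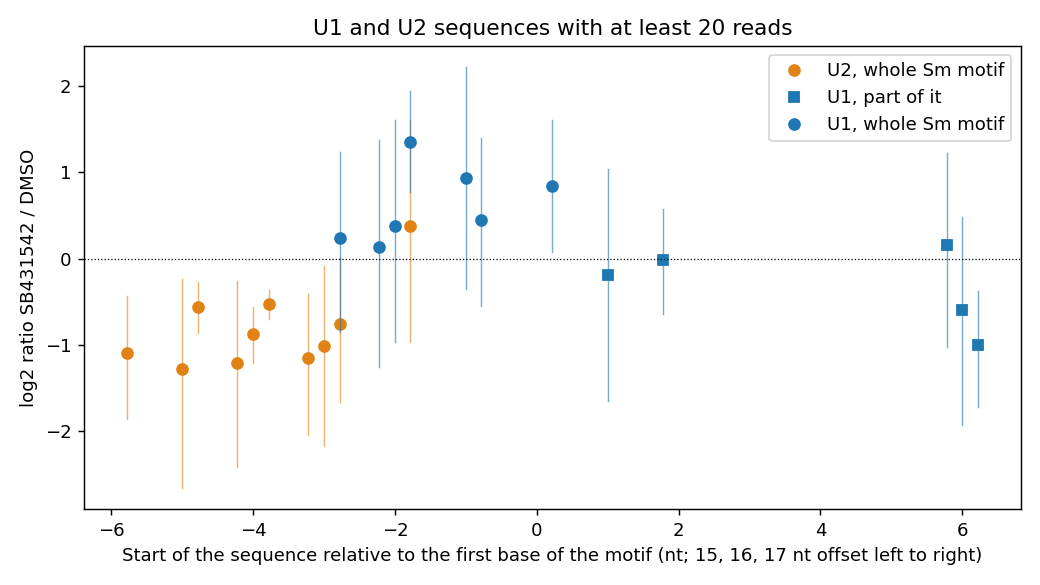
log2 ratio of SB431542 to DMSO (y axis) of the 22 U1 and U2 fragments with at least 20 reads against their first base relative to the first base of the Sm letters (x axis, nt), with 95% counting intervals as lines. The U2 fragments lie below 0 except U2 97-113, the U1 fragments with the whole site (circles) lie above 0, and U1 132-148 lies at -0.999.

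The named U1 genes differ little in sequence. Rnu1b1 and Rnu1b2 are 95.8% identical to Rnu1a1, and Rnu1b6 is 95.2% identical. Of the 93 U1 sequences, 46 with 344 and 251 reads occur in all 4 genes. A further 29 sequences with 231 and 95 reads occur in each but Rnu1b6. Their log2 ratios were 0.48 (0.24 to 0.72) and -0.34 (-0.71 to 0.0050). The first set holds all 19 sequences with the whole Sm site and the second holds none. Within the first set, the 27 sequences without the whole site had 138 and 66 reads (log2 -0.12, -0.57 to 0.31). Whole-site pieces over these others, in that set alone, gave 0.91 (0.38 to 1.45) on the log2 scale, a comparison added after the data were seen. Sequences held by Rnu1b6 but by no other of the 4 named genes had 18 and 12 reads (log2 0.37, -0.84 to 1.49). Those held by Rnu1a1 but by no other named gene had 8 and 2 (log2 -0.83, -4.34 to 1.26). Every U1 sequence was found in more than 1 snRNA gene of the annotation, so neither set belongs to a single copy.

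U6, the catalytic RNA of the spliceosome, had few fragments. It had 23 reads with DMSO and 36 with SB431542, 23.2 and 69.6 RPM (2.97-fold, log2 1.57, 0.79 to 2.40). The sequence that led is shown because it carries the most reads of them:
U6 50-65: attagcatggcccctg
U6 50-65 lies in the central part of the RNA and had 11 and 15 reads (log2 1.37, 0.16 to 2.65). It is held by 340 snRNA genes and 1 protein-coding gene. Of the 21 U6 sequences, 18 with 56 of the 59 reads also match a gene of another biotype, so the reads cannot be given to U6 alone. The 3 sequences with no such match had 1 and 2 reads. No other U6 sequence had more than 4 reads, and 1 of them, with 1 read, reached the 3′ end at which the LSm ring binds.

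The minor and remaining types were near the limit of detection. U11 had 17 and 5 reads in 13 sequences (log2 -0.73, -2.62 to 0.67), 13 and 2 of them in the last of the 5 parts of the RNA, away from its Sm site. The sequence that led had 4 reads and 1 read:
U11 114-129: atcgttggtcccggcg
U12 had 8 and 3 reads (log2 -0.34, -3.03 to 1.58), with U12 130-146 at 2 and 2. U5 had 6 and 4 reads (log2 0.41, -1.92 to 2.43) in 7 sequences, 6 of which match a gene of another biotype. U7 had 5 and 3 reads (log2 0.28, -2.49 to 2.56), and each of its 5 sequences also matches a protein-coding gene: Rnu7 overlaps an exon of Grcc10 on the same strand. For U5, U7, U11 and U12 no difference between the libraries was detectable at this depth.

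The untyped sequences numbered 51 and had 40 reads with DMSO and 41 with SB431542, 40.4 and 79.2 RPM (log2 0.97, 0.31 to 1.64). No one of them had more than 8 reads, and 22 also match a gene of another biotype. With a minimum length of 17 nt their ratio was 0.17. Sequences that also match another biotype made up 7.39% of all snRNA reads with DMSO and 9.62% with SB431542. For U2 and U1 they were few, with 161 of the U2 reads and 56 of the U1 reads over both libraries. In U6 and the untyped, whose ratios had intervals above 0, 56 of 59 and 46 of 81 reads could come from another gene. Without the sequences that match another biotype, the untyped ratio was 0.70 with 19 and 16 reads, and that of U6 was 1.67 with 1 and 2 reads.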

How the data were processed

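The authors deposited, for each of the 2 libraries, the read count of every distinct sequence of 3 to 17 nt as raw whole-number counts, with its length. Total RNA was isolated with TRIzol and 1 µg of it went into an Illumina TruSeq RNA kit, per the labels' protocols. No tool for trimming, size selection or alignment is given in the sources used here. Genome mm9 appears in the submitters' processing notes, and its coordinates were not used. The members, lists and settings were chosen with earlier results of these data known.

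Each sequence of 15 to 17 nt was searched for, as exact text, in the transcripts of GENCODE M21 (GRCm38). Counts were scaled to 1000000 reads of 15 to 17 nt, with a pseudocount of 0.5 read. Intervals are exact (Clopper-Pearson, for ratios by conditioning on the sum) at 95%, and reads without molecular identifiers are not independent molecules. Single sequences were described from 20 reads in the sum of both libraries and called at 2-fold. Fragments were named as the 10 most abundant, the 3 most abundant of each type and the 5 highest and 5 lowest ratios. The GC correction used 10% bins of sequences outside snRNA genes with at least 20 reads. The matching and the ratios were tested on simulated data. Alternatives were other scales, pseudocounts, minimum lengths and read minimums, fewer sequences, types by the closest named gene, distinct sequences and the GC correction; the Sm letters, the split by them and the settings for ratios between parts of the snRNA reads were added after the data were seen. Python 3.11.15, numpy 2.4.6, scipy 1.17.1, Biopython 1.88 and matplotlib 3.10.9 were used. Scaling factors came from edgeR 4.0.16 and DESeq2 1.42.0 in R 4.3.3.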

Additional observations from a re-analysis of the deposited data

How the results depend on the processing

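With 1 library in each group no replicate could be left out, so only processing choices were varied. Of the values past 2-fold that were put through these choices, none changed sign. The ratio of the partial U2 pieces (log2 1.19) was among the values not varied. That of U6 rested on 1 and 2 reads without sequences of other biotypes. The scales moved the median log2 ratio of all sequences by -0.21 (edgeR TMM), -0.16 (DESeq2) and -0.055 (all reads in the file). With TMM the ratio was -0.54 for all snRNA reads, -0.0092 for U1 and -0.81 for U2; with DESeq2 factors it was -0.49 for all and -0.76 for U2. The ratio of all snRNA reads was -0.10 per reads of annotated snRNA, snoRNA, scaRNA, rRNA and mitochondrial rRNA genes. It was -0.22 without the most abundant sequence, and 0.15 for distinct sequences with the DMSO library thinned, the opposite sign. After the GC correction the ratio was 0.49 for U1 and -0.011 for U2, and U1 over U2 was 0.50. U1 with the whole Sm site over U1 with part of it was 0.61 without the most abundant sequence of each.

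Fragments at least 2-fold lower numbered 5, but 0 with a pseudocount of 5, 1 with the GC correction and 30 of 248 with no read minimum (10.6% of all sequences). On the other scales 7 (edgeR TMM), 7 (DESeq2) and 6 (all reads in the file) of 23 were lower, and 2 were higher on each. The share over all sequences was not taken on these scales. At a minimum of 50 reads 4 of 12 fragments were lower, against 13.7% of all sequences with as many reads. Those at least 2-fold higher numbered 2, but 5 with the GC correction, 80 of 248 with no read minimum (28.2% of all sequences) and 1 of 12 at a minimum of 50 reads (6.75%). With no minimum, 1 read seen only with SB431542 gives 2.52 and is called, and 1 read seen only with DMSO gives -0.65 and is not, by the depths and the pseudocount. Over distinct sequences the middle part of U2 held 66.7% (DMSO) and 85.3% (SB431542), the last part of U1 56.4% and 64.9%, and 17 nt 43.8% and 40.1%. Reads in the middle part of U2 were 99.2% and 99.45% from 16 nt and 99.6% and 99.49% at 17 nt. Those in the last part of U1 were 86.2% with DMSO at 17 nt, and 85.9% and 88.0% without sequences of other biotypes. Reads of 17 nt were 70.8% and 70.3% without such sequences and 74.8% and 74.4% from 16 nt, as shorter ones are left out. At 17 nt alone no length share can be given. The causes of the other shifts were not tested. U5, U7, U11 and U12 are limited by depth.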

Other observations

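Pieces of the Sm site regions shorter than 15 nt, which were not counted above, were also present. U2 pieces with the whole site had 28 reads with DMSO and 6 with SB431542 at 13 nt, 28 and 8 at 14 nt, 126 and 30 at 15 nt, 456 and 130 at 16 nt, and 1621 and 581 at 17 nt. Per reads of all lengths the log2 ratio was -1.25 at 13 nt (-2.90 to -0.041) and -0.86 at 14 nt (-2.27 to 0.25). It was -1.17 at 15 nt (-1.815 to -0.60), -0.93 at 16 nt (-1.22 to -0.64) and -0.60 at 17 nt (-0.74 to -0.46). For U1 the pieces with the whole site had 22 and 7 reads at 14 nt, 32 and 23 at 15 nt, 45 and 33 at 16 nt and 129 and 129 at 17 nt, with log2 ratios of -0.70 (-2.24 to 0.51), 0.41 (-0.43 to 1.22), 0.44 (-0.26 to 1.11) and 0.88 (0.52 to 1.24). At 13 nt the U1 pieces had 5 and 2 reads (log2 -0.26, -3.83 to 2.17). No antisense piece of either site was found at 10 to 17 nt. These values are of Rnu2-10 and Rnu1a1 only, and the shortest pieces can match other RNAs.

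Sequences 1 base away from U2 95-111 and without an snRNA match numbered 9, with 16 reads with DMSO and 2 with SB431542, which is 1.48% and 0.513% of the reads of U2 95-111. For U1 124-140 there was 1 such sequence, with 0 reads and 1 read.

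With the DMSO library thinned to the depth of the other, 143 distinct snRNA sequences were left in it, against 147 with SB431542, and over all sequences of 15 to 17 nt 45690 were left against 42410. U2 had 38 and 34, U1 59 and 57, U6 6 and 16 and the untyped 24 and 29. Of the 51 untyped sequences, 17 lie in genes at least 80% identical to Rnu2-10, 5 in genes at least that close to a U1 gene, 3 to a U6 gene and 1 to Rnu5g.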
